A study of Mus musculus with 6 samples.

Results

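The 10 genes described here encode the core of the Lkb1-AMPK energy-sensing pathway in donor hematopoietic stem and progenitor cells (HSPCs) taken from recipient mice after bone marrow transplantation (BMT). They were listed by name and fall into 3 roles. Stk11 (Lkb1), Strada and Cab39 form the Lkb1 kinase complex. Prkaa1, Prkab1, Prkab2 and Prkag1 encode AMPK subunits, and Tsc1, Tsc2 and Mtor lie downstream. All 10 were found among the 24965 genes of the table by Ensembl identifier, and all 10 were among the 13739 genes tested.

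The donors were WT mice or mice with a whole-body Hemgn knockout, both on a C57BL/6 (CD45.2) background. The knockout was made with zinc finger nucleases. By the study's account it is a loss of a few coding bases that introduces a premature stop codon, not of the whole gene. The study used young adult mice of both sexes. Bone marrow cells (20000000 per recipient) were injected into CD45.1 recipients irradiated with a split dose of 9 Gy, and donor cells were sorted at 6 h post-BMT, with 3 libraries per genotype described as biological replicates. How many recipients went into each library is not given in the sources used here, so that p-values measure the spread between these samples. Every library, WT included, therefore comes from cells under transplantation stress in an irradiated host, and no library of untransplanted cells was analysed here. RNA was amplified as full-length cDNA (Smart-Seq2) and given as FPKM, the fragments per kilobase of exon length and scaled to the total fragments of the library, which was 23668015 to 28897360.

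Lkb1 is a kinase that works only when bound to the pseudokinase Strad and the scaffold Mo25 (Cab39), and it activates AMPK when AMP rises against ATP. Active AMPK, a trimer of 1 catalytic α, 1 β and 1 γ subunit, phosphorylates Tsc2 and so restrains mTORC1, the kinase complex that drives protein synthesis and growth. Hematopoietic stem cells are known to depend on Lkb1 for survival and energy balance, in part without AMPK, and they lose quiescence when Tsc1 is deleted.

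The labels and the study differ on the sort, Lin-Sca-1+ in the sample labels and Lin-Sca-1+c-Kit+ in the study's design. Kit was at 5.50 to 7.24 FPKM and Ly6a, which encodes Sca-1, at 8.27 to 17.3 FPKM. The neutrophil granule gene Ngp was at 26488 to 46692 FPKM, and 10 granulocyte markers took 20.03% to 21.5% of the summed FPKM in WT and 14.2% to 15.0% in Hemgn-/- libraries. In 11 HSPC markers the summed level was 36.9 to 42.6 FPKM in WT and 44.5 to 53.6 FPKM in Hemgn-/- libraries, and 1 of the 10 tested was called higher. The list was mixed, so its sum does not speak for each gene. Ly6a lay wholly higher in Hemgn-/- libraries, while Kit lay wholly lower, at 5.50 to 5.90 FPKM against 6.14 to 7.24 FPKM in WT. The 12 erythroid markers summed to 463 to 551 FPKM in WT and 32.8 to 52.5 FPKM in Hemgn-/- libraries, with 5 of 9 tested called lower, and 5 of the 10 granulocyte markers were also called lower. B cell markers (3 of 8), T and NK cell markers (3 of 8) and plasmacytoid dendritic cell markers (3 of 8) included genes called higher. Of the eosinophil, basophil and mast cell markers 3 of 8 were called lower, and of the macrophage markers 2 of 8 were called higher and 2 lower. The 8 endothelial markers summed to 10.99 to 12.9 FPKM in WT and 7.81 to 9.82 FPKM in Hemgn-/- libraries, with 0 of 6 tested called. Beside these counts, 4.37% of all genes tested were called higher and 2.09% lower. No marker on these lists was at 0 in all 6 libraries. The summed level of every list lay apart between genotypes, whether or not genes in it were called. The eosinophil, basophil and mast cell markers summed to 727 to 839 FPKM in WT and 573 to 600 FPKM in Hemgn-/- libraries. The macrophage markers summed to 169 to 173 FPKM in WT and 152 to 159 FPKM in Hemgn-/- libraries. How often such sums separate in other gene sets was not computed, and the part of the lists in the values below was not tested. In bulk RNA, fewer cells of a type and less RNA per cell cannot be told apart.

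Hemgn was at 5.64, 2.96 and 4.68 FPKM in WT libraries 1 to 3 and at 0.75, 0.91 and 1.60 FPKM in Hemgn-/- libraries 1 to 3. The genotypes did not overlap, in the direction of the labels, with a log2 fold change of -1.37 (SE 0.23) and a limma adjusted p of 0.0114.

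The levels of the 10 genes spanned a wide range. FPKM is per length, so genes can be set in order by it. Prkab1, the AMPK β1 subunit that anchors the trimer, stood highest with a mean over the 6 libraries of 80.8 FPKM. It was followed by Prkag1, the γ1 subunit that binds AMP and ATP (29.0 FPKM), and Prkaa1, the catalytic α1 subunit (20.9 FPKM). Strada (13.2 FPKM), Cab39 (10.4 FPKM), Stk11 (8.06 FPKM) and Tsc2 (6.47 FPKM) came next. Mtor (3.32 FPKM), Tsc1 (2.32 FPKM) and Prkab2 (1.09 FPKM) were lowest. Neighbours in this order overlapped in range for Strada and Cab39, for Cab39 and Stk11, for Stk11 and Tsc2, and for Mtor and Tsc1, while the other 5 pairs of neighbours did not overlap.

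Within each AMPK subunit family, 1 gene held nearly all of the summed level. Prkaa1 made up at least 97.7% of the α subunit FPKM across the 6 libraries, with Prkaa2 at most at 0.41 FPKM. Prkab1 made up 98.77% to 99.05% of the β subunit FPKM in WT and 98.35% to 98.44% in Hemgn-/- libraries, ranges that did not overlap. Prkag1 made up 93.6% to 96.4% of the FPKM of Prkag1 and Prkag2 (Prkag3 was looked for by name and not found). The pattern differed in the Lkb1 complex, where Cab39 shared the Mo25 level with Cab39l at 43.7% to 55.8%. Strada held 81.9% to 85.0% of the Strad level in WT and 86.3% to 89.9% in Hemgn-/- libraries, 2 ranges that likewise did not overlap. How often such shares separate in other gene families was not computed.

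The first question was whether any of these genes differed between genotypes. At an adjusted p under 0.05 (limma on log2(FPKM + 1), Benjamini-Hochberg over all genes tested), 0 of 10 members were called, where 6.46% of all genes tested were called. Limma's voom on fragments recovered from the FPKM steps also called 0 of 10, beside 7.76% of all genes it tested. At an unadjusted p under 0.05 the count was 2 of 10, Stk11 and Prkaa1, beside 21.4% of all genes tested, and with a 1.5-fold change as well it was 0 of 10, beside 6.83%. The Hemgn-/- libraries lay wholly above the WT libraries in 2 of 10 members (Prkaa1 and Prkab2), beside 19.2% of all genes, and wholly below them in 2 of 10 (Stk11 and Prkag1), beside 8.18%. These shares are close to the background or rest on 2 genes, and no direction common to the pathway is read from them. The median log2 fold change was 0.06 over the members and 0.09 over all genes tested, and 5 of 10 members lay above the latter.

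**Figure D1:**
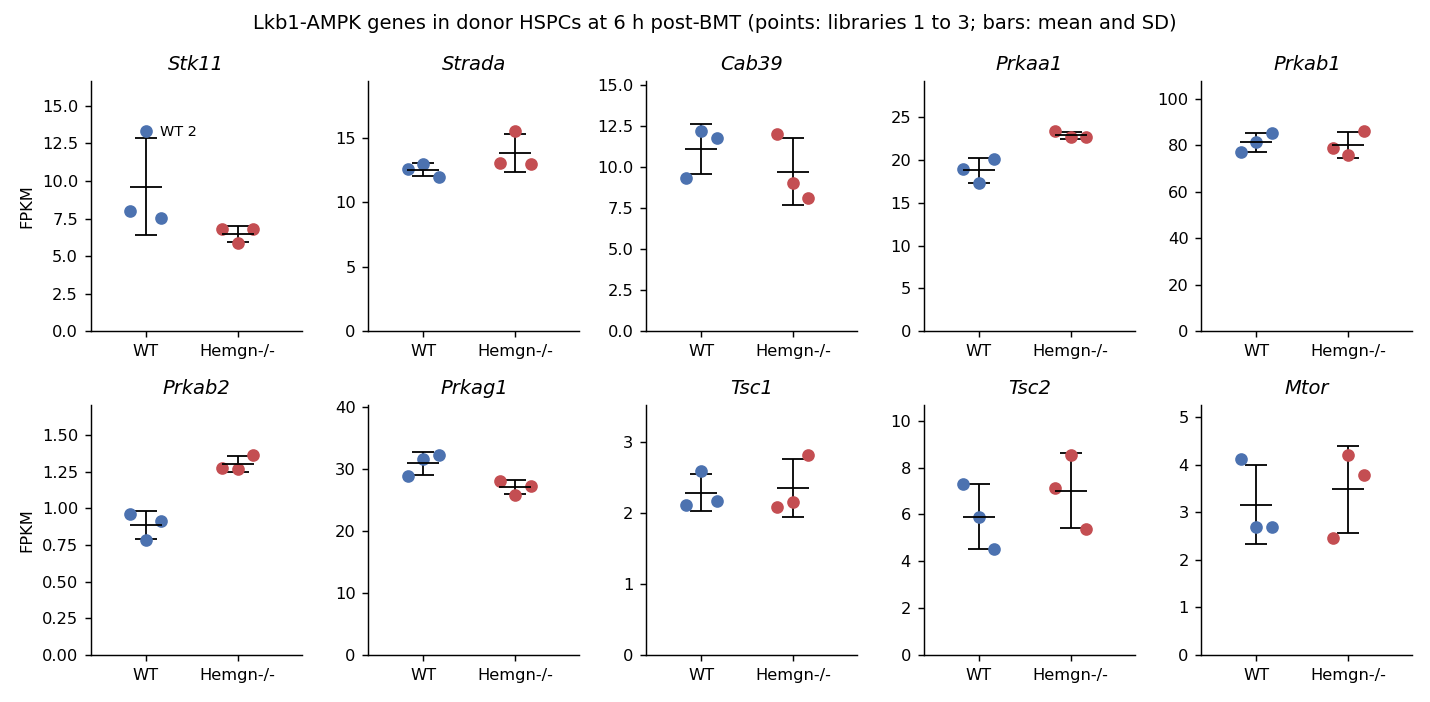
FPKM (vertical axes, linear, starting at 0) of the 10 genes in each library, with WT in blue and Hemgn-/- in red, 3 points per genotype in the order of replicates 1 to 3, and bars for the mean and SD. WT replicate 2 stands at 13.3 FPKM for Stk11, apart from the other 2 WT libraries at 8.02 and 7.55 FPKM, and in Prkaa1, Prkab2, Prkag1 and Stk11 the genotypes do not overlap.

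The promoters of the 2 members with an unadjusted p under 0.05 are shown for context. Each run is the 250 bases before the RefSeq start of the gene (GRCm38.p6), 5′ to 3′ on the gene's strand, and capitals would mark an E-box (CACGTG), of which these hold none.
Stk11, chr10:80115545-80115794, plus strand: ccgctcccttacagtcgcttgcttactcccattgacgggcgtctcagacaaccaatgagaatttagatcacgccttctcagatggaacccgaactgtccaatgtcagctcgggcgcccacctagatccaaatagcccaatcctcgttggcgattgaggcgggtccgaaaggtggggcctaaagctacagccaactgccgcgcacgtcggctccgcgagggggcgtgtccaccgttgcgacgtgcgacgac
Prkaa1, chr15:5143611-5143860, plus strand: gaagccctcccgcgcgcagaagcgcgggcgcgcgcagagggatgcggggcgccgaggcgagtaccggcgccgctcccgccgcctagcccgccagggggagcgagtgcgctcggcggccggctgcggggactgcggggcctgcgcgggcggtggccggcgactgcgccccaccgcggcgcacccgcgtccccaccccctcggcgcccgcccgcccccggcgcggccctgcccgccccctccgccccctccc
Stk11 and Prkaa1 had 33 and 52 CpG in the window of 300 bases that runs 50 bases past the start, where the median over all 32851 windows is 7. The E-box reads the same on either strand. Its letters were found in the windows of 0 of the 10 members, beside 7.15% of all windows. No match says only that these letters are not in this window.

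Stk11 (chr10:80115803-80130682, plus strand, GRCm38) encodes Lkb1, the kinase at the head of the pathway. Of its exon length 5.07% is shared with Cbarp on the opposite strand, which is listed at 0.0069 to 0.30 FPKM. Its FPKM was 8.02, 13.3 and 7.55 in WT libraries 1 to 3 and 6.79, 5.88 and 6.80 in Hemgn-/- libraries 1 to 3. Every Hemgn-/- library lay below every WT library, yet the gap between the lowest WT and the highest Hemgn-/- library was small beside the distance of WT replicate 2 from its group. The log2 fold change was -0.47 (SE 0.19, 95% confidence interval -0.90 to -0.03), with an unadjusted p of 0.0386 and an adjusted p of 0.203 by limma. Without WT replicate 2 it was -0.23 with an adjusted p of 0.353, so that this library carries much of the estimate. Under the 18 alternatives the log2 fold change stayed negative, from -0.60 to -0.23, and 0 of 18 gave an adjusted p under 0.05.

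WT replicate 2 was examined for this reason. Its Stk11 level was 0.71 higher on the log2(FPKM + 1) scale than the mean of the other 2 WT libraries, which is 1.81 SD of the same difference over all genes. In the other 9 members that difference ran from -0.24 to 0.20. Over all genes the SD of this difference was 0.39 for WT replicate 2 and 0.35 to 0.37 for the other 5 libraries, each against the others of its group. It had 2.17% of genes more than 1 log2 unit above its group, where the other libraries had 1.16% to 1.47%. Its depth of 25592595 fragments lay between those of the other 2 WT libraries, and in 5 classes of genes by GC content the median difference was between -0.02 and 0.003. Its summed erythroid (463 FPKM) and granulocyte markers (74425 FPKM) were the lowest of the WT group. So were its eosinophil, basophil and mast cell (727 FPKM), T and NK cell (179 FPKM) and endothelial markers (10.99 FPKM). Its macrophage markers (173 FPKM) were the highest of the WT group, and its HSPC, B cell and plasmacytoid dendritic cell markers lay between the other WT libraries.

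The 5 protein-coding genes whose centred log2(FPKM + 1) values over the 6 libraries were nearest to those of Stk11, out of 10479 candidates, were Mlf2, Pacs1, Noct, Stt3b and the predicted gene Gm17349. Their root mean square differences from Stk11 were 0.06 to 0.08. They were chosen for this likeness, so that their levels are a description. Mlf2, at the head, was at 31.2, 49.0 and 31.3 FPKM in WT and 29.8, 25.6 and 27.6 FPKM in Hemgn-/- libraries. Pacs1 was at 16.4, 26.3 and 15.8 FPKM in WT and 16.2, 13.0 and 15.4 FPKM in Hemgn-/- libraries.

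Strada (chr11:106163330-106202168, minus strand), the pseudokinase that holds Lkb1 in its active form and in the cytoplasm, shares 2.84% of its exon length with Ccdc47 on the same strand, which was at 21.3 to 26.7 FPKM. Strada was at 12.6, 13.0 and 12.0 FPKM in WT and 13.0, 15.5 and 13.0 FPKM in Hemgn-/- libraries. The groups overlapped, and the log2 fold change was 0.13 (95% confidence interval -0.10 to 0.36, adjusted p = 0.514 by limma). It fell to 0.051 without Hemgn-/- replicate 2. Cab39 (chr1:85793441-85851576, plus strand), the scaffold of the complex, was at 9.33, 12.2 and 11.7 FPKM in WT and 12.0, 9.01 and 8.10 FPKM in Hemgn-/- libraries. These values were mixed between genotypes, with a log2 fold change of -0.18 (95% confidence interval -0.54 to 0.18, limma adjusted p = 0.551). With 1 library left out it ran from -0.33 (without Hemgn-/- replicate 1) to -0.073 (without Hemgn-/- replicate 3).

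Prkaa1 (chr15:5143861-5181899, plus strand) had the smallest p of the members. Its FPKM was 19.0, 17.3 and 20.1 in WT and 23.4, 22.7 and 22.7 in Hemgn-/- libraries. All Hemgn-/- libraries were above all WT libraries, and the SD was 1.85% of the mean in Hemgn-/- and 7.61% in WT libraries. The log2 fold change was 0.28 (SE 0.09, 95% confidence interval 0.07 to 0.48), with an unadjusted p of 0.0129 and an adjusted p of 0.113 by limma. Relative to the median of all genes it was 0.19. The adjusted p was under 0.05 under 1 of 18 alternatives, rescaling to the same FPKM total (0.0421), and up to 0.427 under the others.

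The β subunits differed in level by far more than between genotypes. Prkab1 (chr5:116013586-116024508, minus strand) was at 77.3, 81.3 and 85.5 FPKM in WT and 78.8, 75.7 and 86.2 FPKM in Hemgn-/- libraries, which overlap throughout. Its log2 fold change of -0.02 had the narrowest interval of the members (95% confidence interval -0.20 to 0.15, limma adjusted p = 0.906), and its sign turned under 4 alternatives. Prkab2 (chr3:97658193-97673812, plus strand), the β2 subunit, was at 0.96, 0.78 and 0.91 FPKM in WT and 1.27, 1.27 and 1.36 FPKM in Hemgn-/- libraries. Behind these values stand 116, 102 and 129 fragments in WT and 178, 169 and 201 in Hemgn-/- libraries, so that counting error alone is 7.05% to 9.90% per library, and the WT libraries varied by 10.5%. The groups did not overlap, and the log2 fold change was 0.29 (95% confidence interval -0.11 to 0.69, adjusted p = 0.395 by limma). That scale understates a gene near 1 FPKM. With a pseudocount of 0.1 the log2 fold change was 0.51 (adjusted p = 0.364), and with voom on the recovered fragments it was 0.56 (adjusted p = 0.229).

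Prkag1 (chr15:98812797-98831521, minus strand) was at 28.9, 31.7 and 32.3 FPKM in WT and 28.1, 25.8 and 27.3 FPKM in Hemgn-/- libraries. The Hemgn-/- libraries were the lower 3, by a small margin. The log2 fold change was -0.19 (95% confidence interval -0.38 to 0.002, adjusted p = 0.238 by limma) and stayed negative under all 18 alternatives, from -0.29 to -0.10. Of its exon length in GENCODE M21, 43.7% is shared with the antisense gene B130046B21Rik, listed at 0.40 to 0.50 FPKM. By the Smart-Seq2 method that the study names, the cDNA does not mark strand, so reads from the pair could not be told apart there. The labels name a TruSeq kit, and whether the libraries kept strand was not tested.

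**Figure D2:**
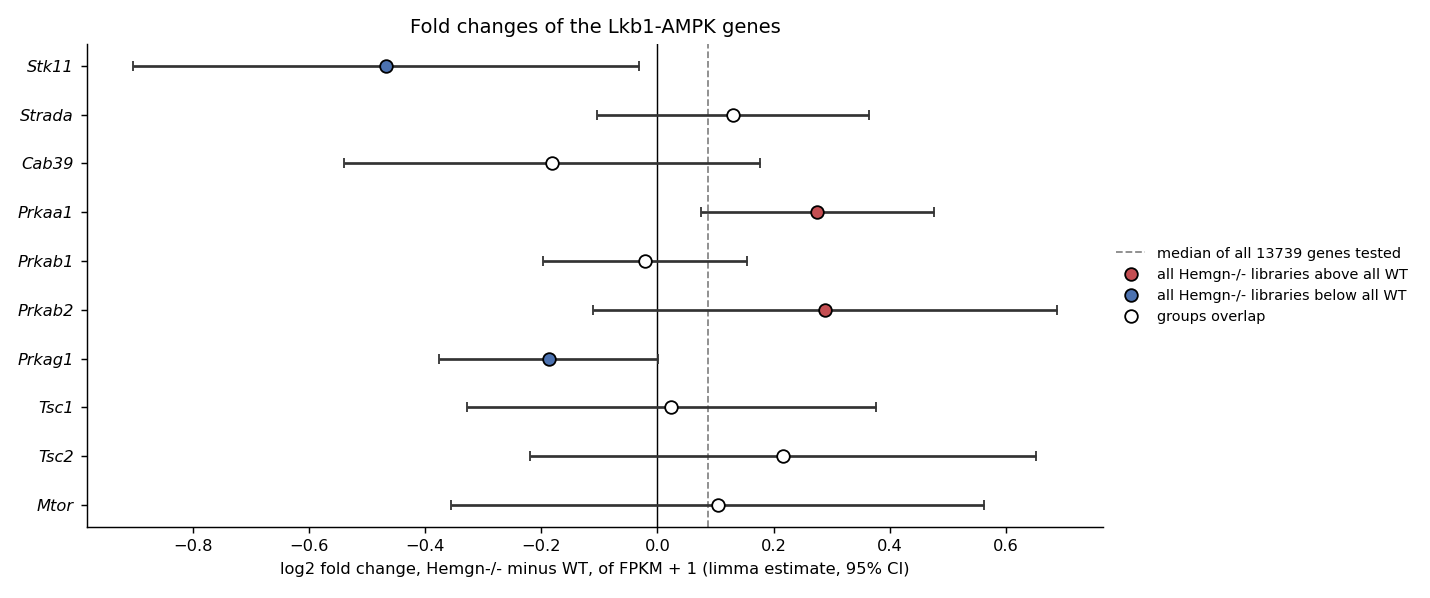
Log2 fold change of FPKM + 1 (horizontal axis, Hemgn-/- minus WT) of each gene with its 95% confidence interval from limma. The dashed line is the median of all genes tested (0.09), the intervals of Stk11 (-0.90 to -0.03) and Prkaa1 (0.07 to 0.48) leave out 0, and filled points mark genes whose genotypes do not overlap.

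Tsc1 and Tsc2 encode the 2 main proteins of the TSC complex, hamartin and tuberin, which switch off Rheb and thereby mTORC1. Tsc1 (chr2:28641228-28691167, plus strand) was at 2.11, 2.59 and 2.16 FPKM in WT and 2.08, 2.15 and 2.82 FPKM in Hemgn-/- libraries, so that 1 library of each genotype stood above the rest. Its log2 fold change of 0.02 (95% confidence interval -0.33 to 0.38, limma adjusted p = 0.949) changed sign under 7 of 18 alternatives. Tsc2 (chr17:24595816-24632630, minus strand) was at 7.32, 5.88 and 4.53 FPKM in WT and 7.13, 8.55 and 5.39 FPKM in Hemgn-/- libraries. The groups overlapped, with a log2 fold change of 0.22 (95% confidence interval -0.22 to 0.65, adjusted p = 0.558 by limma). With 1 library left out it ran from 0.066 (without WT replicate 3) to 0.37 (without Hemgn-/- replicate 3). Of the exon length of Tsc2, 7.20% is shared with Pkd1 on the opposite strand.

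Mtor (chr4:148448611-148557683, plus strand), the kinase of mTORC1 and mTORC2, was at 4.11, 2.69 and 2.68 FPKM in WT and 2.45, 4.21 and 3.79 FPKM in Hemgn-/- libraries. The highest WT library was above 2 of 3 Hemgn-/- libraries, and the log2 fold change was 0.10 (95% confidence interval -0.36 to 0.56, limma adjusted p = 0.806). It changed sign without Hemgn-/- replicate 2. Apart from Stk11 in WT (33.3% of the mean, SD), Mtor and Tsc2 had the widest spread of the members, at 26.1% and 23.6% of the mean in WT and 26.3% and 22.6% in Hemgn-/- libraries (SD). For Mtor, whose libraries hold 681 to 1113 fragments, counting error is 3.00% to 3.83%, well under that spread.

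**Figure D3:**
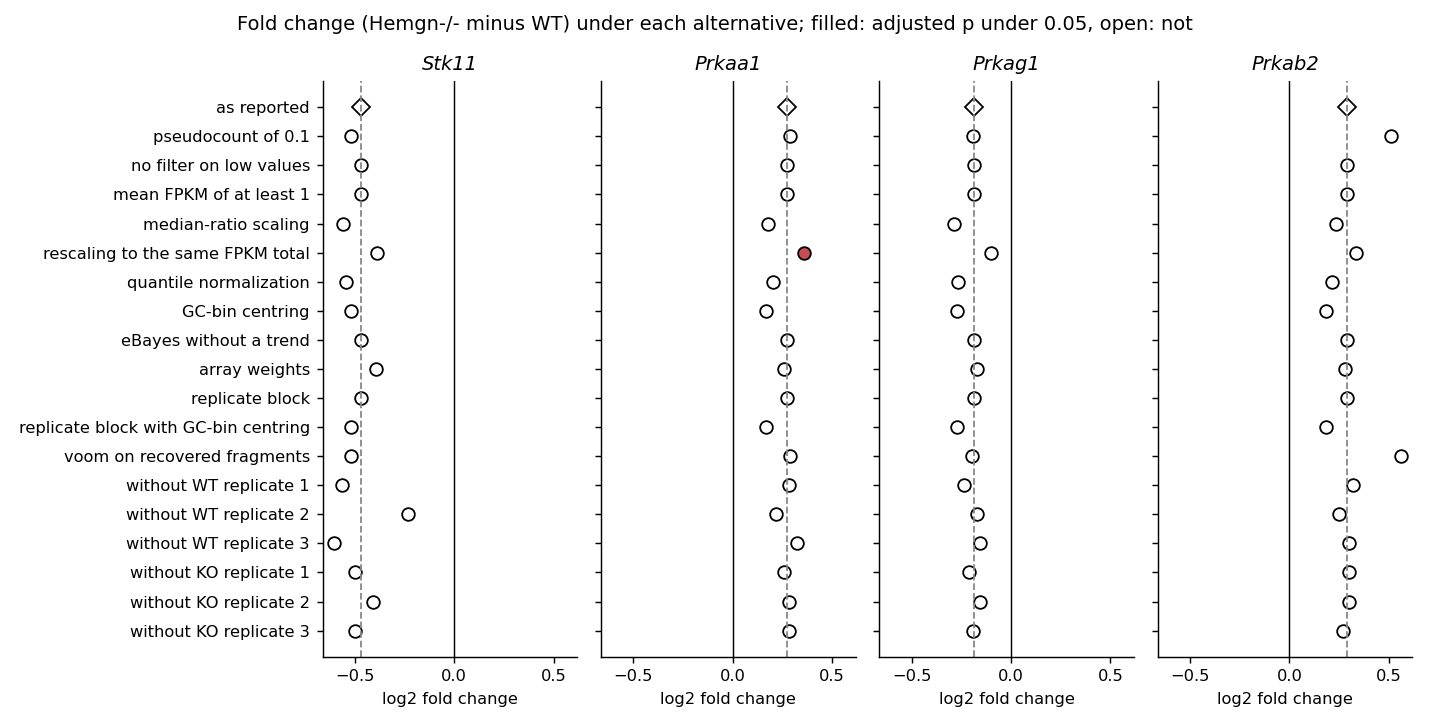
Log2 fold change (horizontal axes, Hemgn-/- minus WT) of the 4 genes whose genotypes do not overlap, as reported (diamond) and under 18 alternatives (circles), filled where the adjusted p is under 0.05. Stk11 moves to -0.23 without WT replicate 2, Prkaa1 is filled under rescaling to the same FPKM total alone, and no point crosses 0.

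A ratio of 2 genes within 1 library does not move with the scaling between libraries, and 5 such ratios were compared by an exact permutation test (two-sided), which with 3 against 3 cannot go below p = 0.1. The log2 ratio of Prkaa1 over Prkag1 was -0.61, -0.87 and -0.68 in WT and -0.26, -0.19 and -0.27 in Hemgn-/- libraries. All Hemgn-/- libraries had more Prkaa1 per Prkag1, by 0.48 (exact p = 0.1). This separation follows from Prkaa1 lying wholly higher and Prkag1 wholly lower, as given above, so its p adds no support. The log2 ratio of Prkab1 over Prkab2 was 6.33, 6.70 and 6.55 in WT and 5.95, 5.90 and 5.98 in Hemgn-/- libraries, lower in each Hemgn-/- library, with a difference of -0.58 (exact p = 0.1). The log2 ratio of Stk11 over Strada was -0.65, 0.04 and -0.67 in WT and -0.94, -1.40 and -0.93 in Hemgn-/- libraries, which also did not overlap. Its difference was -0.66 (exact p = 0.1), and -0.43 without WT replicate 2. The ratios Stk11 over Cab39 (-0.32, exact p = 0.3) and Tsc1 over Tsc2 (-0.22, exact p = 0.8) overlapped between genotypes. Adjusted over the 5 ratios by Benjamini-Hochberg, the exact p of the first 3 was 0.167. The ratios with Prkab2 and Stk11 also reuse a gene whose genotypes did not overlap. No share over other gene pairs was computed, so these ratios are a description.

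**Figure D4:**
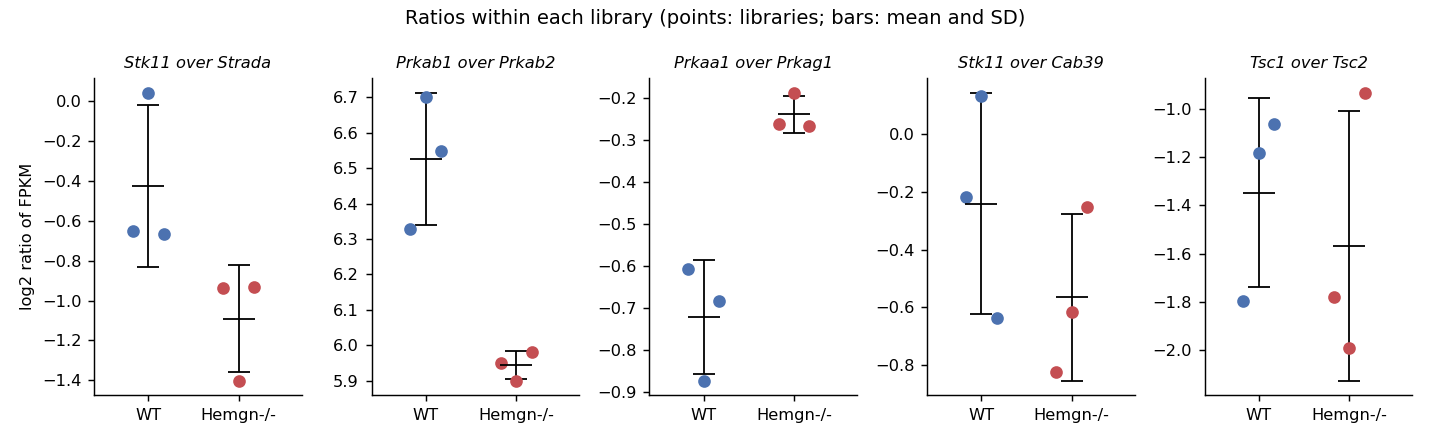
Log2 ratio of FPKM of gene pairs within each library (vertical axes, each with its own range), WT in blue and Hemgn-/- in red, with bars for the mean and SD of 3 libraries. The genotypes are apart for Stk11 over Strada, Prkab1 over Prkab2 and Prkaa1 over Prkag1 and overlap for the other 2 ratios.

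The rest of the pathway was taken from lists drawn up by role, 91 genes of which 77 could be tested. At an adjusted p under 0.05, 2 of 77 rose, where 4.37% of all genes tested were called higher, and 1 of 77 fell, where 2.09% were called lower. The median log2 fold change over the 77 genes was 0.09, the same at this precision as over all genes. The groups did not overlap in 20 of 77 genes higher in Hemgn-/- libraries, a larger share than the 19.2% of all genes. They did not overlap in 4 of 77 genes lower, a smaller share than the 8.18% of all genes. Neither difference in share was tested. The pathway as listed thus held no larger share of called genes than the background.

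Sik1, a salt-inducible kinase of the AMPK-related family that Lkb1 activates, was the gene that fell. It was at 19.98, 16.02 and 15.5 FPKM in WT and 9.23, 9.25 and 10.7 FPKM in Hemgn-/- libraries. The genotypes were clearly apart, with a log2 fold change of -0.76 (SE 0.12, adjusted p = 0.00841 by limma), and the adjusted p was under 0.05 under all 18 alternatives (0.00296 to 0.0401). Nuak2, another AMPK-related kinase, rose from 12.7, 14.0 and 10.6 FPKM in WT to 17.9, 16.4 and 19.1 FPKM in Hemgn-/- libraries. Its log2 fold change was 0.49 (SE 0.12, limma adjusted p = 0.0459), and it was past the threshold under 6 of 18 alternatives. The other 7 AMPK-related kinases tested had no adjusted p under 0.05, and the median over all 9 was -0.03.

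Sesn1, a Sestrin that holds mTORC1 in check through GATOR2 and is a known p53 target, rose from 22.7, 20.03 and 17.8 FPKM in WT to 28.7, 28.6 and 28.1 FPKM in Hemgn-/- libraries. The lowest Hemgn-/- library was well above the highest WT library, with a log2 fold change of 0.49 (SE 0.10, limma adjusted p = 0.0247), and the gene was past the threshold under 8 of 18 alternatives. It belongs to the list of Rag GTPases, Ragulator, GATOR, folliculin and Sestrin genes, which carry amino acid signals to mTORC1. Of 26 tested there, 1 was called, 10 lay wholly higher in Hemgn-/- libraries (beside 19.2% of all genes) and 1 wholly lower (beside 8.18%), and the median log2 fold change was 0.21. Fnip2, a folliculin partner, had the largest value of that list, at 1.21, 0.52 and 0.44 FPKM in WT and 1.61, 1.48 and 1.54 FPKM in Hemgn-/- libraries. Its log2 fold change was 0.59 (adjusted p = 0.164 by limma), and 1.27 with voom on the recovered fragments (adjusted p = 0.0317).

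In the other 5 lists, with 42 genes tested, 0 were called at an adjusted p under 0.05 by limma, beside 6.46% of all genes tested, and 5 had an unadjusted p under 0.05, beside 21.4%. Voom on the recovered fragments called 1 of the 42, Prr5l, an mTORC2 subunit that is named here after its values were seen. Of 3 other Lkb1 and AMPK subunits tested, Stradb, the second Strad pseudokinase, had the largest log2 fold change (-0.26, adjusted p = 0.341). Of 3 other AMPK kinases, it was Camkk1, which answers to calcium (0.36, adjusted p = 0.239). Among 9 other TSC, Rheb, mTORC1 and mTORC2 subunits it was Mapkap1, the mTORC2 subunit Sin1. Mapkap1 was at 3.26, 6.73 and 4.11 FPKM in WT and 2.42, 2.19 and 3.10 FPKM in Hemgn-/- libraries. WT replicate 2 was the highest library, as for Stk11, and the log2 fold change of -0.64 (adjusted p = 0.141 by limma) was -0.39 without it. Of 20 AMPK substrates and outputs the largest was Ppargc1b, a coactivator of mitochondrial genes (0.51, adjusted p = 0.149), and the median was 0.10. Of these 20 genes, 6 lay wholly higher in Hemgn-/- libraries, beside 19.2% of all genes, and 0 wholly lower, beside 8.18%. Of 7 mTORC1 outputs and stress inputs it was Eif4ebp1, the translation repressor that mTORC1 inactivates (-0.22, adjusted p = 0.278), and the median was -0.02.

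**Figure D5:**
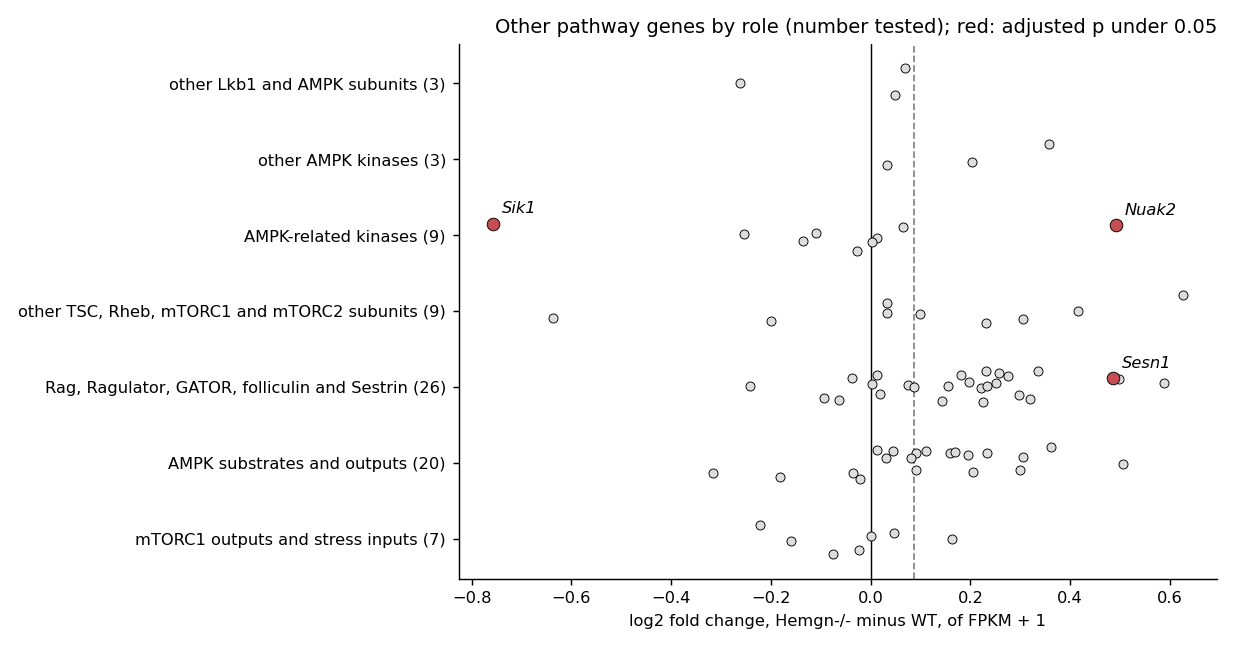
Log2 fold change of FPKM + 1 (horizontal axis, Hemgn-/- minus WT) of the 77 other pathway genes tested, each point a gene, in 7 lists by role (vertical axis, with the number tested). Red points are the 3 genes with an adjusted p under 0.05, Sik1 at -0.76, Nuak2 at 0.49 and Sesn1 at 0.49, and the dashed line is the median of all genes tested (0.09).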

How the data were processed

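RNA-seq of donor cells sorted at 6 h post-BMT gave 6 libraries, 3 WT and 3 Hemgn-/-, grouped by the genotype label. The authors deposited FPKM per gene, 1 column per library, with no further scaling between libraries stated. The submitters' processing notes name Bowtie2 2.2.3, HISAT2 2.1.0, TopHat2, HTSeq 0.6.0 and GRCm38, without roles, and the annotation is not given in the sources used here. The knockout columns were matched to samples by genotype and number. The labels name a TruSeq kit and retro-orbital injection, the study Smart-Seq2 cDNA and the tail vein.

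Of 24965 genes, 24921 matched GENCODE M21 (GRCm38) by Ensembl identifier. The steps between low FPKM values gave 23668015 to 28897360 fragments per library, where 95.2% of 13472 genes with at most 100 fragments came out whole in all 6 libraries (within 0.01). Tsc2 did not come out whole with its M21 length, and Prkag1 did only with a length of 1638 bases in place of 2175. Fragments of amplified cDNA are not independent molecules, and counting errors cover counting alone. A check for 1 library deposited more than once found no pair within a genotype that agreed within counting noise (chi-square per gene 17.5 to 35.2).

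All genes whose FPKM passed 1 in any library entered limma 3.58.1 in R 4.3.3, fitted on log2(FPKM + 1) (eBayes with a trend, two-sided, Benjamini-Hochberg), which understates changes of low genes. Ratios were tested with scipy 1.17.1. The fit was tested on simulated data. The alternatives were a pseudocount of 0.1, no filter or a mean FPKM of at least 1, median-ratio, total, quantile and GC-bin scaling, eBayes without a trend, array weights, the replicate number as a block, both block and GC centring, voom on the recovered fragments, and each library left out in turn.

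Genes named are the members, called pathway genes, the largest change of each pathway list, the 5 genes nearest to Stk11 and Hemgn. Marker genes named beside the sort (Kit, Ly6a, Ngp) and genes that overlap a member or share its family stand outside this rule. The members and lists were chosen with earlier results of these data known. Promoters are RefSeq windows (GRCm38.p6), 1 for each of the 10 members.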

Additional observations from a re-analysis of the deposited data

How the results depend on the processing

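The 10 members kept 0 calls at an adjusted p under 0.05 under 17 of 18 alternatives, with 1 call under rescaling to the same FPKM total (Prkaa1). Their median log2 fold change, 0.06 as reported, ran from -0.01 (without Hemgn-/- replicate 3) to 0.12 (without Hemgn-/- replicate 1) with 1 library left out, while the median of all genes stayed at 0.077 to 0.092. Under the other alternatives it ran from -0.03 to 0.13. The median of all genes was 0.09 as reported, 0.007 with median-ratio scaling, 0.01 with quantile normalization, 0.004 with GC-bin centring and 0.16 with the same FPKM total, so that directions within that shift depend on the scaling. The sign changed in 3 members. Prkab1 was at 0.066 with the same FPKM total and 0.0057 with array weights, and ran from -0.074 to 0.019 with 1 library left out. Tsc1 was at -0.049 with median-ratio scaling, -0.066 with quantile normalization and -0.067 with GC-bin centring, with or without the replicate block, and ran from -0.074 to 0.089 with 1 library left out. Mtor ran from -0.015 to 0.28 with 1 library left out.

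The 3 calls in the pathway list became 1 without a filter on low values, with median-ratio scaling, with quantile normalization, with eBayes without a trend and with the replicate block and GC-bin centring, 5 with a mean FPKM of at least 1, 6 with the same FPKM total, 6 with voom and 1 to 2 with 1 library left out. Over all genes, 887 calls became 466 without a filter, 390 without a trend, 569 with the replicate block and GC-bin centring, and 373 to 688 with 1 library left out. Of the 887 calls 67.6% were higher in Hemgn-/- libraries, against 46.9% with median-ratio scaling, 51.5% with quantile normalization, 48.9% with GC-bin centring and 81.7% with the same FPKM total. The cause was not tested, except that leaving out a library leaves fewer samples and dropping the filter tests more genes.

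Same-numbered libraries of the genotypes did not deviate together (r = -0.04, -0.009 and 0.01 across genes), and differently numbered ones gave -0.029 to 0.036. The values show no shift shared by number, but cannot tell whether same-numbered libraries were handled together. With the replicate block, calls over all genes were 636. The ratios kept their sign with a pseudocount of 0.1 and with 1 library left out, the latter with Stk11 over Strada at -0.78 to -0.43, Stk11 over Cab39 at -0.52 to -0.14, Prkab1 over Prkab2 at -0.68 to -0.49, Tsc1 over Tsc2 at -0.54 to -0.009 and Prkaa1 over Prkag1 at 0.41 to 0.54. Hemgn had an adjusted p under 0.05 under 16 of 18 alternatives (0.00737 to 0.0613).

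Depth limits Prkab2 alone among the members, at 102 to 201 fragments.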
